A study of Drosophila melanogaster with 18 samples.

Results

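A set of 8 *Drosophila melanogaster* genes grouped as uncharacterised, although *CG17386* is known as *Achilles*, was followed over the day in fly heads at 3 temperatures. The genes are *CG34134*, *CG17108*, *CG34180*, *CG17386*, *CG30108*, *CG30109*, *CG4577* and *CG4000*, and they are 8 of the 8200 genes whose transcripts were measured well enough to be tested. They were chosen by gene symbol because their values in these same libraries follow a strong daily rhythm, so their rhythms are given below as a description and without a test. They fell into 3 kinds by the time of their highest values. *CG34134*, *CG34180*, *CG17108* and *CG17386* were highest in the night or around dawn. *CG30108* and *CG30109*, which lie side by side in the genome, were highest around dusk at 18°C and had lower fitted amplitudes at 25°C and 29°C. *CG4577* was highest late in the day at 25°C and 29°C and *CG4000* by day at 29°C, while at 18°C the highest library of both was one taken in darkness. The fitted amplitude was largest at 25°C for *CG4577* and at 29°C for *CG4000*. That of *CG4000* was 1.31 on the log2 scale at 29°C and 0.25 at each of the other temperatures. The daily level of *CG4000* also fell between 18°C and 29°C, from a mean signal of 4452 ± 450 at 18°C to 2163 ± 763 at 29°C (SD, n = 6).

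The flies were wild-type Canton-S, a laboratory strain, with no transgene or mutation named in the labels, so the groups differ in temperature alone as far as the labels say. The labels say that flies were grown at the different temperatures, and the methods describe at least 3 days in cycles of light and darkness at 18, 25 or 29°C. The methods also say that crosses were raised at 25°C, and that newly emerged adults stayed there or were moved to 18°C or 29°C. Whether this covers the flies of these libraries is not stated. Heads were collected at ZT3, ZT7, ZT11, ZT15, ZT19 and ZT23, where ZT is zeitgeber time, the hours after lights on. Each temperature and time point is 1 library of 3′ ends of polyadenylated RNA, 18 in all, and the 6 time points of a temperature stood in for replicates of that temperature. The sex and age of the flies, and how many heads went into a library, are not given in the sources used here. Values are called signal: the reads of a transcript divided by 1 constant per library.

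Fly clock cells keep time through a feedback loop in which the transcription factors CLOCK and CYCLE switch on *period* (*per*), *timeless* (*tim*), *vrille* (*vri*) and *Pdp1* in the evening, and the PER and TIM proteins later shut this activation down. VRILLE and PDP1 act in turn on *Clk*, in a second loop whose targets are out of phase with the first. Besides the brain, the compound eye and the fat body of the head hold clocks, and many rhythmic transcripts of whole heads come from these tissues. A head is therefore a mixture, and fewer cells of a type cannot be told apart from less RNA per cell in any value given here.

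The libraries held an estimated 1.24 to 6.62 M reads (median 3.11 M), and 3 reads, used here to mark a low count, correspond to a signal between 1.55 and 7.36. Values at or under 3 reads were kept in the fits and ratios. The 25°C library of ZT15 was the shallowest, and it stood apart on the second principal component of all tested transcripts at 71.2, where the other 17 lay between -24.6 and 7.11. For several results the value without it is also given. Eye, neuron, glia and fat body markers were detected in all libraries, and the shares of the eye and fat body lists differed between the temperatures. The 5 photoreceptor genes of the eye list took 1.102% to 1.45% of the signal at 18°C, 1.96% to 2.18% at 25°C and 2.63% to 3.17% at 29°C. The 5 fat body genes went the other way, with 0.527% to 1.74%, 0.210% to 0.347% and 0.145% to 0.390%, and so did the 3 yolk protein genes, which mark the female fat body, with 9.06% to 18.3%, 4.76% to 8.57% and 3.19% to 5.78%. Yolk protein RNA and the male dosage compensation RNAs *roX1* and *roX2* were both present in all 18 libraries, the latter at 0.0162% to 0.103% of the signal at 18°C, 0.0546% to 0.121% at 25°C and 0.0908% to 0.117% at 29°C. *bam* and *Vm26Aa* of the 5 ovary genes were at or under 3 reads in all libraries. So were *Acp26Aa* and *Acp36DE* of the 5 testis and accessory gland genes. The other genes of both lists were above 3 reads in at least 1 library. These lists took up to 0.0014% and 0.0012% of the signal. The 7 midgut genes took 0.00045% to 0.00087% at 18°C, 0.00041% to 0.0038% at 25°C, highest at ZT15, and 0.00031% to 0.0175% at 29°C.

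Most of the 8 genes are small. Positions are those of the deposited transcript models in the dm3 genome build, with the first base of a chromosome as 1. *CG34134* lies on chromosome arm 2L at 8190297 to 8190781 (minus strand), a single exon that encodes 119 amino acids. *CG34180* lies on 2L at 6060510 to 6060938 (plus strand), with 2 exons and 76 amino acids. *CG17108* lies on 2L at 10692940 to 10694103 (minus strand), with 1 exon and 342 amino acids. *CG4577*, which has the longest genomic span of the set, lies on 2L at 1134693 to 1140988 (plus strand), with 5 exons and 445 or 446 amino acids. *CG17386* lies on 2R at 10307829 to 10312099 (plus strand), a single exon over a span of 4271 bases that encodes 867 amino acids. *CG30108* (13556900 to 13557505) and *CG30109* (13557587 to 13558253) follow each other on the plus strand of 2R, 81 bp apart, each with 2 exons and 88 amino acids. *CG4000* lies on 3R at 16501946 to 16503073 (minus strand), with 3 exons and 263 amino acids. In 6 of the 8 genes the transcript spans under 1200 bp of the genome, as it does in 16.3% of all tested transcripts, and the median span was 898 bp against 2956 bp. Exon and protein lengths are from the Ensembl annotation of a later build, where the gene models may differ from those the reads were counted on.

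The label of uncharacterised genes was checked by name only, and 7 of the 8 carry only a CG number in RefSeq. *CG17386* is named *Achilles* (*Achl*) there, a gene known to be driven by the clock in neurons and to influence immune gene expression in the fly head. All 8 genes had a single distinct transcript entry, none of which repeats the values of another gene, and all 8 passed the filter on low values (a signal of at least 10 in at least 6 libraries). In 5 of them the signal was at least 10 in all 18 libraries. In the other 3 a total of 5 libraries held 3 reads or fewer, 2 of *CG17386*, 1 of *CG30108* and 2 of *CG30109*.

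Their abundance ranged widely. *CG17108* was among the most abundant transcripts of the head, with a mean signal of 24675 over the 18 libraries, above 99.9% of all tested transcripts. *CG4000* (mean 3326, above 97.9%), *CG34134* (406, above 90.4%) and *CG4577* (333, above 88.7%) were also well expressed. *CG34180* (91.2), *CG17386* (58.1), *CG30109* (43.6) and *CG30108* (43.4) lay near the middle, above 42.5% to 65.5% of tested transcripts. Reads of 3′ ends do not grow with transcript length, so these levels are per transcript and not per length.

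**Figure D1:**
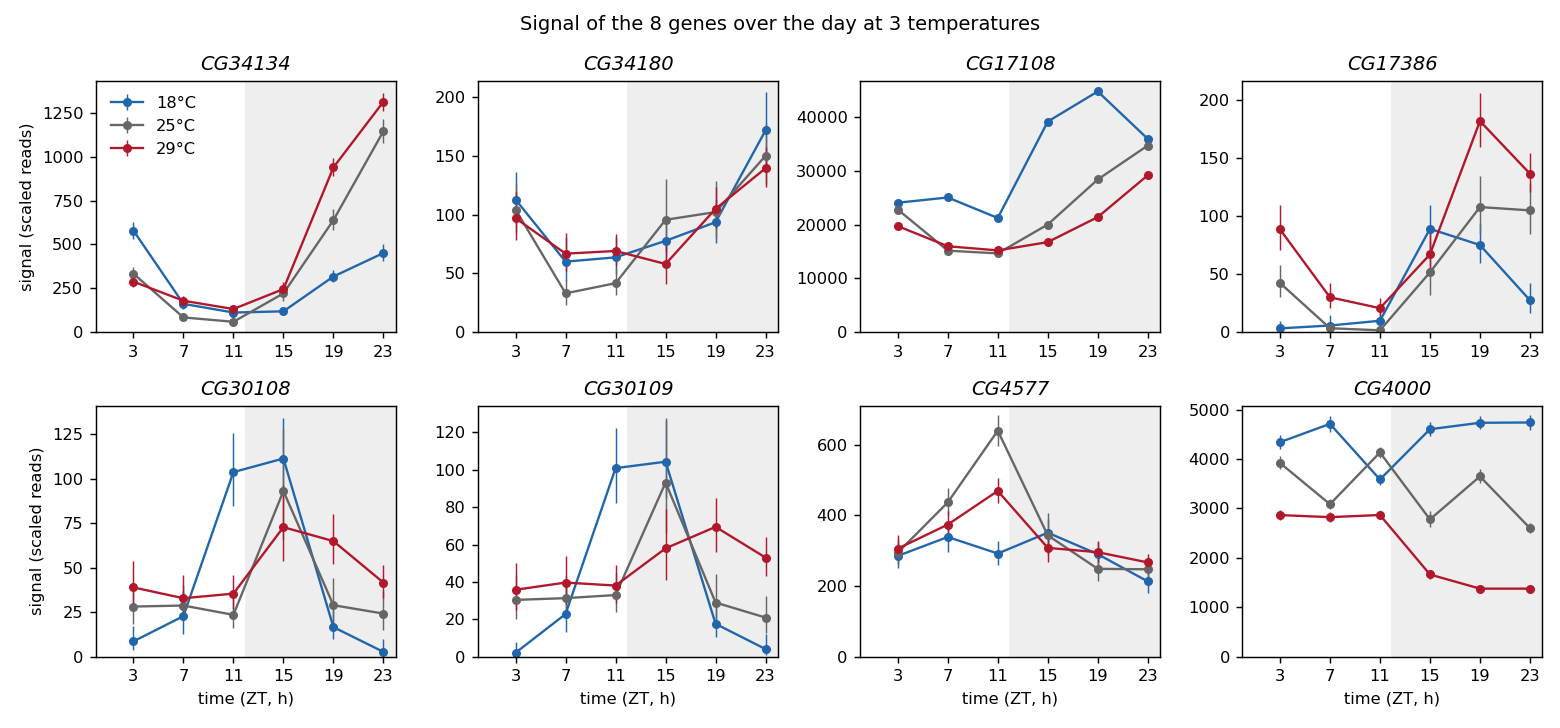
Signal of each gene (vertical axis, scaled reads, linear and starting at 0) against time of day (horizontal axis, ZT in hours), with 1 library per point, a blue line for 18°C, a gray one for 25°C and a red one for 29°C, bars for 95% Poisson counting intervals and darkness shaded. *CG34134* reaches 1145 at 25°C and 1313 at 29°C at ZT23 but 579 at 18°C at ZT3, and *CG4000* goes from 2868 at ZT11 to 1665 at ZT15 at 29°C.

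*CG34134* was highest late in the night at 25°C and 29°C and early in the day at 18°C. At 25°C its signal was 334, 83.9, 59.0, 221, 638 and 1145 at ZT3, ZT7, ZT11, ZT15, ZT19 and ZT23, and at 29°C it was 288, 179, 132, 245, 939 and 1313. At 18°C it was 579, 161, 112, 119, 317 and 451, so the highest library was that of ZT3 and no night library reached the ZT19 level of the warmer flies. The lowest value was at ZT11 in all 3 temperatures, and the highest was 5.19 times the lowest at 18°C, 19.4 times at 25°C and 9.97 times at 29°C. A cosine curve of 24 h fitted to log2(signal + 1) had a peak-to-trough amplitude of 2.53 at 18°C, 4.22 at 25°C and 3.32 at 29°C on the log2 scale (SE 0.32).

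*CG34180*, the smallest of the 8 proteins, had a similar course with a shallower swing. Its signal at ZT3 to ZT23 was 113, 60.02, 63.7, 77.7, 93.6 and 172 at 18°C. At 25°C it was 104, 33.1, 41.7, 95.7, 102 and 150, and at 29°C it was 97.0, 66.8, 69.1, 58.0, 105 and 140. ZT23 was the highest library at every temperature, while the lowest was ZT7 at 18°C and 25°C and ZT15 at 29°C. Each value rests on 39 to 271 reads. The fitted amplitude was 1.33, 1.98 and 1.13 (log2, SE 0.39) at 18, 25 and 29°C. Its transcript overlaps on the opposite strand with that of *CG9140* (mean signal 1557), and whether strand was used in counting is not stated, so reads of the 2 genes may not be fully separated. *CG9140* itself had an amplitude of 0.12 on the log2 scale and a correlation of 0.13 with *CG34180*.

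*CG17108* swung about 2-fold around a very high level. At 18°C its signal was 24070.5, 25044, 21229, 39165, 44762 and 35938 from ZT3 to ZT23. The steepest step was between ZT11 and ZT15. At 25°C the values were 22796, 15157, 14645, 20019, 28390 and 34711, and at 29°C 19725, 15971, 15202, 16744, 21398 and 29178, with a gradual climb to ZT23 in both. With 8162 to 56656 reads per library, counting error is negligible for this gene. The fitted amplitude was 1.05, 1.26 and 0.85 (log2, SE 0.18).

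*CG17386* (*Achilles*) had the largest fitted amplitude of the 8 genes at 25°C. At 18°C its signal was 3.25, 5.72, 9.80, 89.0, 75.1 and 27.5 from ZT3 to ZT23, and at 25°C it was 42.4, 3.39, 1.57, 51.5, 108 and 105. At 29°C the values were 88.6, 30.0, 20.7, 66.9, 182 and 136. The gene was thus near its detection limit from ZT3 to ZT11 at 18°C and at ZT7 and ZT11 at 25°C (2 to 10 reads), whereas every library held at least 31 reads at 29°C. The highest library was ZT15 at 18°C and ZT19 at 25°C and 29°C. At 18°C the highest value (87 reads) was 27.4 times the lowest (3 reads), with a 95% counting interval from 9.05 to 135, and at 25°C 68.5 times (78 against 2 reads), with an interval from 18.3 to 576. The fitted amplitude was 4.61, 5.77 and 3.03 (log2, SE 0.68) from the coldest to the warmest flies, and that of the rhythm shared by the 3 temperatures, 4.02, ranked 1 among all 8846 tested transcripts. *CG34134*, at 3.22, ranked 3. *CG30109*, *CG30108*, *CG34180*, *CG17108*, *CG4577* and *CG4000* ranked 25, 44, 196, 784, 1282 and 3483. The genes were chosen for this trait, and the amplitude of *CG17386* rests in part on libraries of 2 to 10 reads.

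*CG30108* and *CG30109* had a dusk rhythm at 18°C. At that temperature the signal of *CG30108* was 8.68, 22.9, 104, 111, 16.7 and 2.75 from ZT3 to ZT23, and that of *CG30109* 2.17, 22.9, 101, 104, 17.6 and 4.12. ZT11 and ZT15 stood above the rest in both genes. The ratio of the highest to the lowest library was 40.6 for *CG30108* (109 against 2 reads, interval 10.96 to 339) and 48.1 for *CG30109* (102 against 2 reads, interval 12.98 to 403), and the fitted amplitudes were 4.87 (SE 0.62) and 5.41 (SE 0.58) on the log2 scale.

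At the warmer temperatures the pair was flatter. *CG30108* had a signal of 28.3, 28.8, 23.6, 93.2, 29.0 and 24.3 at 25°C and of 39.0, 32.9, 35.5, 72.9, 65.0 and 41.7 at 29°C. *CG30109* had 30.4, 31.4, 33.0, 93.2, 29.0 and 21.0 at 25°C and 35.9, 39.7, 38.1, 58.0, 69.5 and 53.0 at 29°C. At 25°C a single library, ZT15, stood above 5 that lay close together, and it is the shallow library that stands apart from the others. It held 38 reads of each gene, and the 95% counting interval of 66.0 to 128 lies above the signal of all other 25°C libraries for both genes. Without it the fitted 25°C amplitude went from 1.11 to 0.11 for *CG30108* and from 1.3 to 0.47 for *CG30109*. In that library the yolk protein share of 4.76% was the lowest of the 25°C libraries and the summed share of the glial genes *repo* and *moody*, 0.0070%, the highest of all 18, as was that of *roX1* and *roX2* (0.121%), and their part in these values was not tested. The troughs also differed between temperatures. At 18°C the lowest library had a signal of 2.75 for *CG30108* and 2.17 for *CG30109*, while at 29°C it had 32.9 and 35.9.

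The 2 genes of this pair could hardly be told apart. Their ratio of signals had a median of 0.974 over the 18 libraries and a range of 0.667 to 4, the latter from 8 against 2 reads in the 18°C library of ZT3. In 3 libraries both held exactly the same number of reads, and in 15 the signals differed by at most 25% of the larger one. The genes encode proteins of the same length and lie 81 bp apart on the same strand. How the authors assigned reads that match more than 1 place is not stated for these values, and the separate values of the pair are therefore uncertain.

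*CG4577* had its highest signal at the end of the day in the warmer flies. At 25°C its signal was 294, 437, 639, 343, 249 and 247 from ZT3 to ZT23, and at 29°C it was 306, 374, 469, 308, 296 and 267. At 18°C the values were 285, 339, 292, 351, 290 and 213, with no single high library. ZT23 was lowest at all 3 temperatures. The fitted amplitude was 0.48, 1.3 and 0.68 (log2, SE 0.24) at 18, 25 and 29°C. The table holds 2 identical entries for this gene, which were counted once.

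*CG4000* was rhythmic at 29°C, where its signal was 2866, 2824 and 2868 at ZT3, ZT7 and ZT11 and 1665, 1379 and 1378 at ZT15, ZT19 and ZT23. The 3 libraries taken in the light thus lay close together and above all 3 taken in darkness. At 25°C the values were 3922, 3086, 4133, 2779, 3648 and 2603, and at 18°C 4340.4, 4712, 3586, 4603, 4733 and 4739, with no such step. Fitted amplitudes were 0.25 at 18°C, 0.25 at 25°C and 1.31 at 29°C (log2, SE 0.22).

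**Figure D2:**
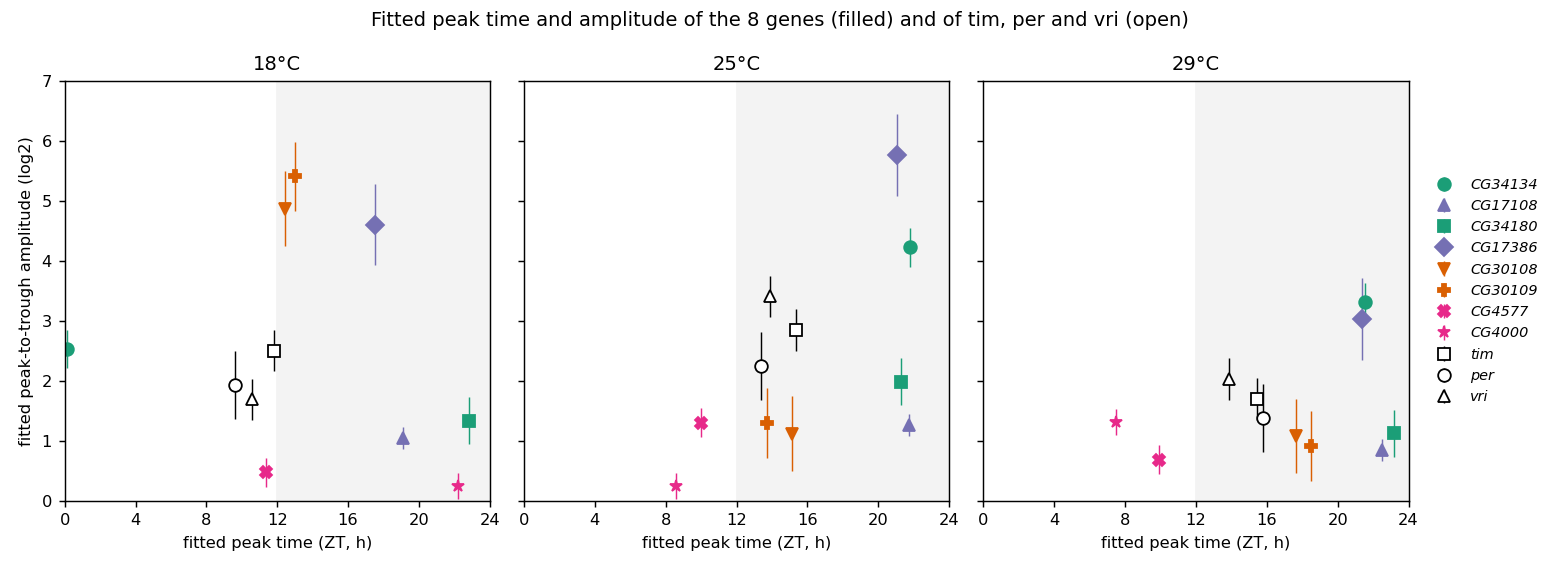
Fitted peak time (horizontal axis, ZT in hours) and fitted peak-to-trough amplitude of log2(signal + 1) (vertical axis) at 18, 25 and 29°C, with bars for the standard error of the amplitude, filled symbols for the 8 genes and open symbols for the clock genes *tim*, *per* and *vri*; darkness is shaded. *CG17386* peaks at 17.5 h at 18°C and at 21.0 h at 25°C, while *CG34134* moves the other way, from 0.16 h to 21.8 h.

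The peak times of the night genes did not move together between 25°C and 18°C. *CG17386* peaked at 21.0 h at 25°C and at 17.5 h at 18°C, a difference of -3.51 h for 18°C minus 25°C (SE 0.72), that is, earlier in the cold. That of *CG17108* was -2.60 h (SE 0.87), from 19.1 h against 21.7 h. *CG34134* was 2.39 h later (SE 0.56), at 0.16 h against 21.8 h, and the difference for *CG34180* was 1.53 h in the same direction (SE 1.35). *CG34180* and *CG34134* thus trail *CG17108* and *CG17386* at 18°C, while all 4 lay between 21.0 h and 21.8 h at 25°C. Between 29°C and 25°C the same 4 peaks differed by -0.24 to 1.87 h, with standard errors of 0.46 to 1.52 h.

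For comparison, the peaks of *tim*, *per* and *vri* were also earlier at 18°C than at 25°C, with differences of -3.55 h (SE 0.70), -3.81 h (SE 1.48) and -3.31 h (SE 0.88). The difference of *CG17386* has the same sign and that of *CG34134* the opposite one. Without the 25°C library of ZT15 the differences were -4.42 h for *CG17386*, -2.66 h for *CG17108*, 2.14 h for *CG34134* and 0.59 h for *CG34180*, and -3.50 h, -2.95 h and -3.45 h for *tim*, *per* and *vri*. Of the day genes, *CG4577* peaked at 11.3 h, 9.99 h and 9.93 h at 18, 25 and 29°C, with a difference of 1.36 h between 18°C and 25°C that is smaller than its standard error of 2.07 h. *CG4000* peaked at 7.46 h at 29°C (SE 0.65 h), and its amplitude at the other temperatures was too small to place a peak. All these peak times are those of a curve through 6 libraries, and without the 25°C library of ZT15 the 25°C peak moved from 21.3 h to 22.2 h for *CG34180* and from 21.0 h to 22.0 h for *CG17386*.

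Whether temperature changes the daily level of the genes is a question that their selection for a rhythm leaves free, because a 24 h wave over 6 evenly spaced times does not alter the mean. The 6 libraries of a temperature were compared with those of another in a linear model (limma) on log2(signal + 1), with p-values adjusted over all 8846 transcripts. No gene of the 8 passed between 18°C and 25°C, against 10.8% of all transcripts. Between 29°C and 25°C 1 of 8 passed (2.06% of all transcripts), and between 29°C and 18°C 2 of 8 (23.1%). The 2 of 8 are near the background share, and the 1 of 8 is a single gene, *CG4000*. At an unadjusted p under 0.05 the counts were 2, 1 and 4 of 8, against 2147, 1233 and 3008 of all 8846 transcripts. The median log2 change of the 8 genes was -0.18 at 18°C against 25°C, 0.29 at 29°C against 25°C and 0.38 at 29°C against 18°C, and that of all transcripts -0.02, 0.02 and 0.05. Since the rhythm of a gene widens the spread between its 6 libraries, the comparison is least sensitive for the genes with the deepest rhythms.

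*CG4000* had a mean signal of 4452 ± 450 at 18°C, 3362 ± 630 at 25°C and 2163 ± 763 at 29°C (SD, n = 6). It was lower at 29°C than at 18°C by a log2 change of -1.11 (SE 0.16, adjusted p = 6.94e-06), that is 2.16-fold, at 6 of 6 time points. It was the only gene of the 8 whose libraries did not overlap between these temperatures, which 12% of all transcripts did. Between 29°C and 25°C the log2 change was -0.69 (SE 0.16, adjusted p = 0.0185), also at 6 of 6 time points. The adjusted p of this smaller step was 0.0831 without the libraries of ZT15, 0.156 without those of ZT19, 0.0215 without the 25°C library of ZT15 alone (log2 change -0.74) and 0.0665 with no filter on low values. Between 18°C and 25°C the change was 0.42 (SE 0.16, adjusted p = 0.105), with 5 of 6 time points higher in the cold. None of the 8 genes was free of overlap between 18°C and 25°C (5.6% of all transcripts) or between 29°C and 25°C (2.19%).

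*CG17108* had a mean signal of 31701 ± 9555 at 18°C, 22619 ± 7818 at 25°C and 19703 ± 5207 at 29°C. It was lower at 29°C than at 18°C by a log2 change of -0.67 (SE 0.19, adjusted p = 0.0115), or 1.59-fold, at 6 of 6 time points, although the ranges of the libraries overlapped. Without the libraries of ZT15 the adjusted p was 0.0739. Its change between 18°C and 25°C was 0.50 (adjusted p = 0.101) with 6 of 6 time points higher in the cold, and between 29°C and 25°C it was -0.17 (adjusted p = 0.764).

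The genes of the fat body and yolk lists moved in the same direction as these 2. All 3 yolk protein genes and all 3 tested fat body genes were called lower at 29°C than at 18°C, with the shares of signal given above, while 4 of the 5 eye genes and both *roX* genes were called higher. Of the muscle list (*Mhc*, *Act88F*, *TpnC4*; 0.124% to 0.212% of the signal at 18°C and 0.0958% to 0.122% at 29°C), 1 of 2 tested genes was called lower. Whether these shares have a part in the levels of *CG4000* and *CG17108* was not tested.

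For *CG17386* the log2 changes towards 29°C were larger than for the other 7 genes, and they were not called in this comparison. It averaged 35.1 ± 37.6 at 18°C, against 51.9 ± 46.7 in the 25°C and 87.4 ± 62.4 in the 29°C libraries (mean signal ± SD, n = 6). The change was 1.41 (SE 0.81, adjusted p = 0.452) at 29°C against 25°C with 6 of 6 time points higher, and 1.79 (SE 0.81, adjusted p = 0.116) at 29°C against 18°C with 5 of 6 higher. For *CG30109* the change at 29°C against 18°C was 1.24 (SE 0.59, adjusted p = 0.138) and for *CG30108* 0.97 (SE 0.56, adjusted p = 0.228), each with 4 of 6 time points higher. *CG34134*, *CG34180* and *CG4577* had changes between -0.25 and 0.59 in all 3 comparisons, with standard errors of 0.18 to 0.58 and adjusted p-values from 0.435 to 0.948.

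**Figure D3:**
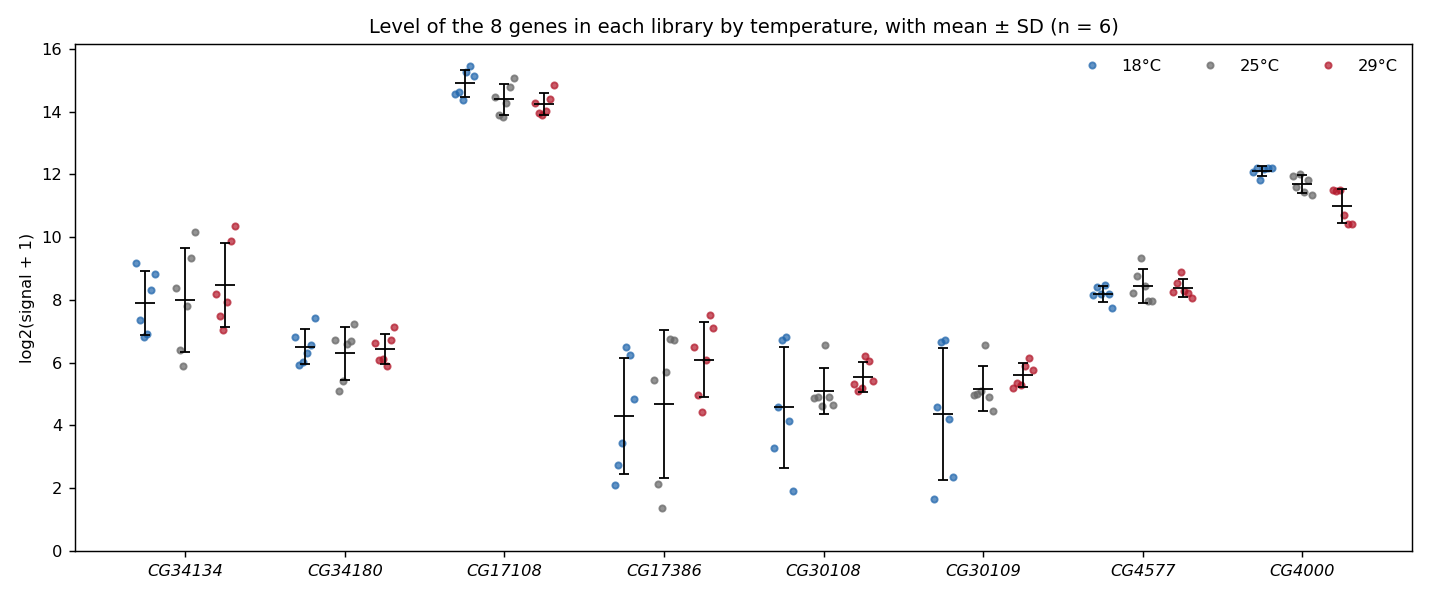
Level of each gene in every library, as log2(signal + 1) on a vertical axis that starts at 0, in blue for 18°C, gray for 25°C and red for 29°C, with a black bar for the mean ± SD of the 6 time points. *CG4000* steps down from a mean signal of 4452 to 3362 and 2163, and the libraries of *CG17386*, *CG30108* and *CG30109* spread widest at 18°C or 25°C.

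The 4 night genes were most alike at 25°C. Over the 6 time points of that temperature, the 6 pairs formed by *CG34134*, *CG34180*, *CG17108* and *CG17386* had Pearson correlations of log2(signal + 1) from 0.918 to 0.996, and *CG4577* ran against all 4 of them, from -0.95 to -0.86. At 29°C the 6 pairs lay between 0.74 and 0.94. At 18°C they split. *CG34134* with *CG34180* (0.82) and *CG17108* with *CG17386* (0.90) stayed alike, whereas the other 4 pairs lay between -0.21 and 0.39. *CG30108* and *CG30109* were correlated at 0.94, 0.95 and 0.85 at 18, 25 and 29°C. These correlations have 6 points each, share their libraries and follow in part from how the genes were chosen.

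**Figure D4:**
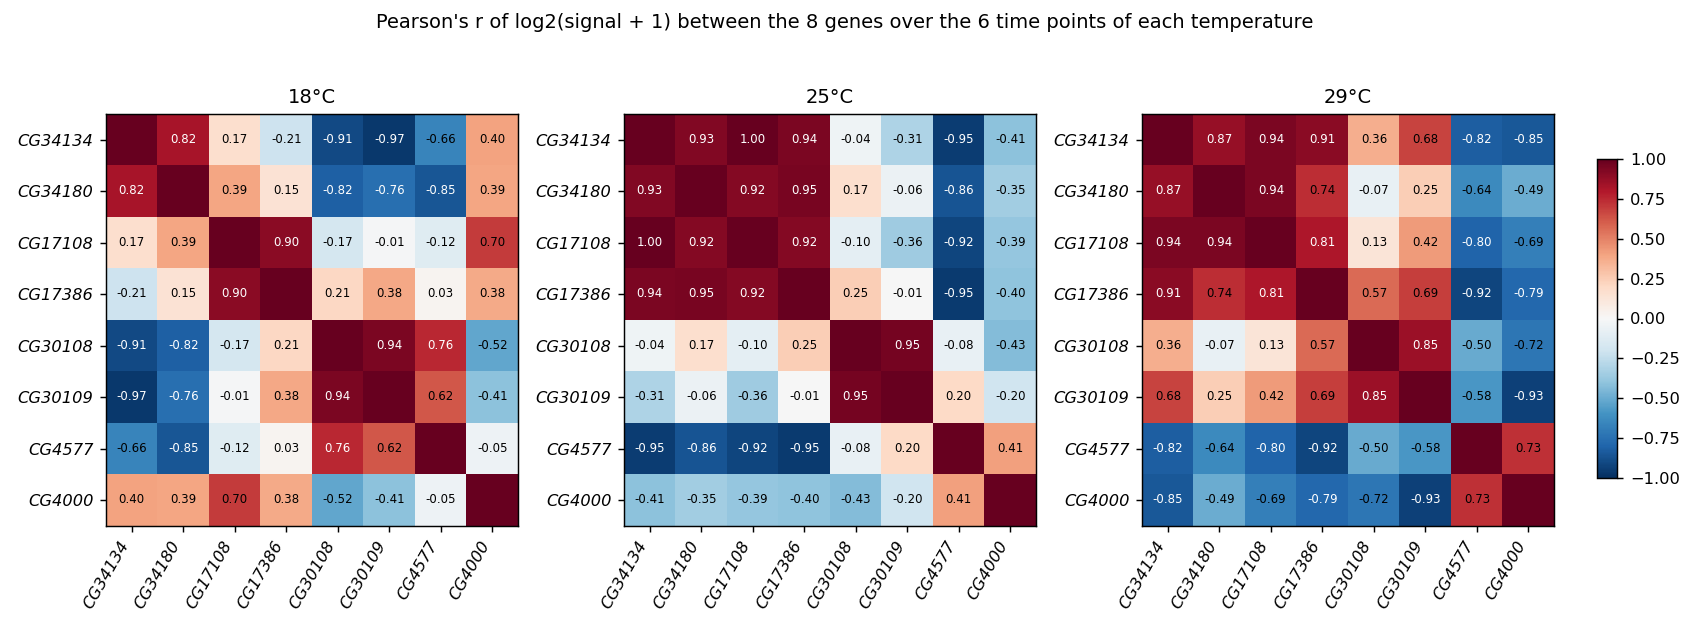
Pearson's r between each pair of the 8 genes, from log2(signal + 1) over the 6 time points (n = 6 libraries) at 18, 25 and 29°C, with red for positive and blue for negative values and each r printed in its cell. The upper left block of 4 night genes is uniform at 25°C (0.918 to 0.996) and splits into 2 pairs at 18°C.

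The genes whose course over all 18 libraries was most like that of each member were then looked up, with each temperature set to the same mean. The measure is Pearson's r over 18 libraries, given as a description. For *CG34134* they were *CG17352* (0.94), *Rh4* (0.89), which encodes an ultraviolet-sensitive opsin of R7 photoreceptors, and *CG34180* (0.88). For *CG34180* they were *CG34134*, *CG17352* (0.85) and *CG13926* (0.84). *CG17352* and *Rh4* peaked at 22.8 h and 23.4 h with amplitudes of 0.96 and 0.64 on the log2 scale, so their swing is smaller than that of *CG34134*.

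For *CG17108* the most alike were *CG14528* (0.90), *CG17386* (0.89) and *CG17124* (0.86). *CG14528* and *CG17124* also peaked earlier in the cold, at 20.5 h and 18.9 h at 18°C against 22.6 h and 22.3 h at 25°C. Their likeness to *CG17108* in this follows in part from how they were picked, by correlation over the same libraries. For *CG17386*, *CG17108* was followed at a distance by *snRNA:U1:95Cc* and *snRNA:U1:21D* (0.76 and 0.75), which are near-identical copies of the spliceosomal U1 RNA and whose separate counts are uncertain.

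*CG30108* and *CG30109* were each other's nearest (0.94). Next to both came *knk* (0.86 and 0.84), which encodes Knickkopf, a protein needed to organise cuticle chitin, and then *Rrp47* (0.81), a cofactor of the nuclear RNA exosome, for *CG30108* and *Elk* (0.80), a voltage-gated potassium channel, for *CG30109*. *knk* had amplitudes of 3.56 at 18°C, 1.33 at 25°C and 0.68 at 29°C and peaked at 11.9 h in the cold, although its mean signal of 11.9 makes it a low-count gene.

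Among the genes most like the day genes, 3 encode cuticle proteins. For *CG4577* they were *Cpr11B* (0.84) and *Cpr49Ag* (0.79), which encode cuticle proteins of the chitin-binding CPR family, and between them *Swim* (0.82), a secreted binding partner of the Wingless signal. For *CG4000* they were *CG7214* (0.89), *Ca-P60A* (0.83), the calcium pump of the sarco- and endoplasmic reticulum, and *Cpr49Ae* (0.82). *CG7214* and *Cpr49Ae* had amplitudes of 2.46 and 1.26 at 29°C against 0.23 and 0.16 at 18°C, with peaks at 7.44 h and 7.36 h at 29°C. These are the few nearest by rank, and the likeness was not tested.

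The genes next door were described in the same way. The 4 nearest tested genes of each member, 2 on each side and with the 8 members left out, make 28 different genes. *CG30108* and *CG30109*, 81 bp apart, were thus not counted as neighbours of each other. In limma, 0 of them passed the shared 24 h test (0.497% of all transcripts), and 5 of 28 had an unadjusted p under 0.05, as did 8.66% of all transcripts. A rank test within single temperatures called 2 of 28 (*CG7296* and *CG9135*) and 4.95% of all transcripts. The median amplitude of the neighbours was 0.45 and that of all transcripts 0.37 on the log2 scale. *CG8475*, 26 bp from *CG34134* on the same strand, had an amplitude of 0.05, and *Piezo*, a mechanically gated ion channel gene 159 bp away on the opposite strand, one of 0.09, against 3.22 in *CG34134*.

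The correlation of a neighbour with its member, over 18 libraries, ranged from -0.69 to 0.72. The highest was that of *P32* with *CG30109*, 560 bp away on the opposite strand, with an amplitude of 1.103 and a peak at 14.2 h at 18°C and amplitudes of 0.42 and 0.17 at 25°C and 29°C. The lowest was that of *CG7296*, 5873 bp from *CG17108*, which peaked at 10.97 h. *CG7300*, 1105 bp from *CG17108* on the other side, had a correlation of 0.58 and peaked at 20.7 h.

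**Figure D5:**
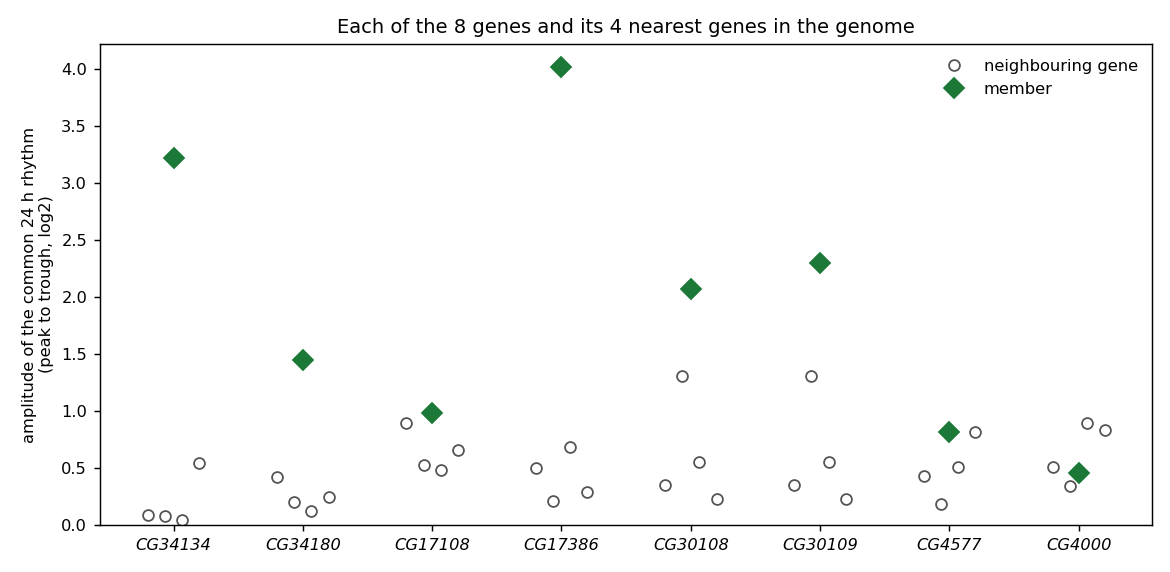
Peak-to-trough amplitude of the 24 h rhythm shared by the 3 temperatures (vertical axis, log2, starting at 0) for each of the 8 genes (filled diamonds) and its 4 nearest tested genes outside the 8 (open circles). *CG34134* and *CG17386* stand at 3.22 and 4.02 over neighbours that reach 0.54 and 0.69, whereas *CG4577* and *CG4000* lie in the range of theirs.

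The clock genes and known outputs were set beside the members as a reference for the time of day. Of 8 clock genes (*tim*, *per*, *vri*, *Pdp1*, *Clk*, *cyc*, *cry*, *cwo*), 2 passed the shared 24 h test, *tim* (amplitude 2.12 on the log2 scale, peak at 14.2 h, adjusted p = 0.000274) and *vri* (2.22, 13.2 h, adjusted p = 0.000222), and 5 had an unadjusted p under 0.05. *CG30108* and *CG30109* peaked at 13.5 h and 13.6 h in the same fit, near these 2, but that fit pools temperatures with different peak times. The pair had its largest fitted amplitudes at 18°C. There *CG30108* peaked at 12.44 h (SE 0.49 h) and *CG30109* at 13.01 h (SE 0.41 h). At that temperature *tim* peaked at 11.82 h (SE 0.53 h) and *vri* at 10.59 h (SE 0.78 h), both earlier than the pair. Of 6 head genes used as known clock outputs, 5 were tested, of which 2 passed and all 5 had an unadjusted p under 0.05. The sixth, *Ugt35b*, was listed above 0 in 1 library only. *CG5798*, listed as *Ubpy* and encoding a ubiquitin-specific protease, passed (1.78, 12.1 h, adjusted p = 9.50e-05), and so did *Slob*, which encodes a protein that binds a calcium-activated potassium channel (0.91, 12.7 h, adjusted p = 0.0184). *dyw* (listed as *CG2650*) peaked at 9.23 h with an amplitude of 2.27 (adjusted p = 0.375). *takeout* (*to*), a feeding-related gene of the juvenile hormone binding protein family, and *sxe2*, a lipase-like gene, both peaked at 22.8 h, with adjusted p-values of 0.147 and 0.340. *CG34134* and *CG34180*, at 22.3 h and 22.2 h, lay close to these. Between temperatures, 0 of the 8 clock genes were called by limma in any comparison, with 1, 0 and 1 at an unadjusted p under 0.05 for 18°C against 25°C, 29°C against 25°C and 29°C against 18°C, and of the outputs *sxe2* was called higher at 29°C than at 25°C and at 18°C.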

How the data were processed

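Polyadenylated RNA of Canton-S heads was measured by 3′ RNA-seq in 18 libraries, 1 per temperature and time point. Second replicates that the methods mention were not analysed here. The authors deposited 1 table of a signal per transcript and library, in which reads had been divided by 1 constant per library. Per the labels, the submitters' processing notes name Bowtie2, TopHat, Cufflinks and the build dm3, and the counting rule is not given in the sources used here. The worth of 1 read was taken as the most frequent nonzero value of a library, and 96.8% to 97.7% of nonzero values were whole multiples of it (within 0.01 read). Because the rest were fractions, the count model chosen for whole counts was not run, and limma 3.58.1 (R 4.3.3; trended empirical Bayes, tested on simulated data) was fitted to log2(signal + 1), which understates changes of low values. Identical entries of a gene were counted once and entries differing by under 10% were merged. Transcripts with a signal of at least 10 in at least 6 libraries were tested, 8846 in all, with Benjamini-Hochberg adjustment and a threshold of 0.05. Temperature comparisons used 3 temperature means. Rhythms used a cosine and a sine of 24 h, shared or per temperature, with amplitude given from peak to trough; the rank test correlated the 6 values of a temperature with cosines over all orders of the time points, and its smallest p is 0.0167. Temperatures came from the labels. The fifth time point, called 18 h in titles and 19 h in descriptions, was used as ZT19. P-values measure only the spread between these libraries, and intervals (Poisson, and exact binomial for ratios, at 95%) cover counting error only. The members, gene lists and tests were chosen with earlier results of these data known. Genes outside the set were named by rule: the 3 most correlated genes, the 4 nearest genes, and fixed lists of clock, output and marker genes. Alternatives were other pseudocounts, filters, scalings, designs and left-out libraries. Sequences were not used here.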

Additional observations from a re-analysis of the deposited data

Results flagged for a closer look

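In each of the 24 groups formed by a gene and a temperature, the highest or lowest of the 6 libraries was compared with the rest. Its gap to the nearest library passed Dixon's 95% critical value for 6 samples in 3 groups. The nominal rate of 1 in 20 would give about 1.2, but it assumes independent draws from the same normal distribution. These groups are time points of genes chosen for a daily rhythm, and they share libraries. The number of flags was therefore not judged against that rate. The 25°C library of ZT15 had a signal of 93.2 for *CG30108*, with the other 5 between 23.6 and 29.0, and a signal of 93.2 for *CG30109*, with the others between 21.0 and 33.0. Both flags come from the same library and from neighbouring genes whose reads may not be separable. Without that library the fitted 25°C amplitude was 0.11 for *CG30108* and 0.47 for *CG30109* (log2). In the ZT15 libraries of 18°C and 29°C, *CG30108* had a signal of 111 and 72.9. *CG4000* had a signal of 3586 in the 18°C library of ZT11, below the other 5 at 4340.4 to 4739. The cause of these values was not tested.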

How the results depend on the processing

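With every repeated entry kept, 2044, 332 and 4263 transcripts passed between 18°C and 25°C, 29°C and 25°C, and 29°C and 18°C, against 959, 182 and 2044. Leaving out 1 time point gave 725 to 831, 49 to 155 (49 without ZT15, 78 without ZT19) and 1730 to 1879, and 0 to 1, 0 to 1 and 2 to 3 of the 8 genes. With no filter, 156 transcripts and 0 of the 8 genes passed between 29°C and 25°C. Time points share only a label (18 same-time pairs correlated at -0.054 to 0.11). With the replicate block of time point, 1, 1 and 3 of the 8 genes passed, against 1032, 237 and 2120 of all 8846 transcripts. Those gained were *CG17108* (18°C against 25°C, adjusted p = 0.0024) and *CG17386* (29°C against 18°C, 0.00768). With 24 h terms in the model 2, 2 and 6 of the 8 genes passed, against 1062, 271 and 2114 of all transcripts. However, these terms are what the genes were chosen for.

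No called gene changed direction. Among uncalled ones, *CG34134* (18°C against 25°C, -0.10) became 0.058, 0.081 and 0.15 without ZT15, ZT19 and ZT23 (range over left-out times -0.31 to 0.15), and *CG17386* 0.21 without ZT3 (-0.87 to 0.21). *CG34180* (29°C against 25°C) became -0.033 without ZT7 (-0.033 to 0.31), *CG4577* 0.0064 without ZT11 (-0.13 to 0.0064), and *CG34180* (29°C against 18°C) 0.10 under scaling by library size alone. That scaling moved the median of all transcripts to -0.18 at 18°C against 25°C and 0.24 at 29°C against 18°C, and the share of higher calls from 61.6%, 39.6% and 45.4% to 25.7%, 57.5% and 69.1%; *CG4000* and *CG17108* passed the same comparisons as before. A pseudocount of 4 lowered the fitted amplitudes of *CG17386* to 3.91 (18°C) and 4.74 (25°C), and of *CG30108* and *CG30109* at 18°C to 4.18 and 4.52. The neighbours gained 2 calls under the rank test. With 1 library per temperature and time, no value at a single time has a replicate.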
